A study of Gallus gallus with 6 samples.

Results

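The genes described here encode the enzymes that make melanin and the proteins that build and equip the melanosome, the organelle in which it is laid down. They are TYR, TYRP1, DCT, PMEL, MLANA, OCA2, SLC24A5, SLC45A2 and GPR143. A probe set, the array's unit for one transcript, was taken for a gene when the platform annotation gave it exactly 1 symbol and that symbol was the gene's. All 9 genes had at least 1 such probe set, out of 13009 genes with one on the array, and they had 12 probe sets between them.

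Chicken neural crest cells were grown out of neural tube explants of Brown Leghorn embryos, and transcripts were measured on 6 arrays, 3 for each of 2 groups. In the v-Myb group the cells expressed v-Myb-L3,4A-HAER, which is the v-Myb oncoprotein with a mutated leucine zipper and with activity that 4-OH-tamoxifen induces. In the N118D group they expressed v-Myb-L3,4A-N118D-HAER, the same construct with a further point mutation in the DNA-binding domain. Both groups carried the zipper mutation, had been exposed to retrovirus, had the explant taken away after 3 days and were given 4-OH-tamoxifen at 200 nM over 4 hours, and neither cells without a construct nor cells without the inducer were among the arrays. The cultures were outgrowths of mixed cells and not sorted pigment cells, so more pigment cells and more pigment gene RNA per cell cannot be told apart.

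Melanin synthesis starts with tyrosinase, the product of TYR, which oxidises tyrosine to dopaquinone. DCT and TYRP1 act on later intermediates of the black-brown pigment eumelanin. PMEL forms the fibrils on which pigment is deposited, and OCA2, SLC24A5 and SLC45A2 move ions and other solutes across membranes of the organelle and its precursors. In neural crest cells these genes are switched on along the path from melanoblast to melanocyte, DCT early on it. The transcription factor MITF is a main activator.

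The transcripts of 7 of the 9 genes were above the testing minimum on all 6 arrays, and those of SLC45A2 and GPR143 were too dim to be tested. For each of the 7 genes the v-Myb mean was above the N118D mean, by 0.38 to 0.53 on the log2 scale when the brightest probe set stood for a gene. For SLC24A5 the 2 probe sets disagreed over the arrays, and the dimmer one had a difference of 0.078. The median of these 7 differences was 0.48, against a median of -0.0018 over all 16526 probe sets tested. The 3 v-Myb arrays spanned more than this median for 6 of the 7 genes, PMEL being the exception, and the 3 N118D arrays for 5 of 7, DCT and PMEL being the exceptions. The array v-Myb replicate 2 was highest and N118D replicate 1 lowest for most pigment genes, while v-Myb replicate 1 lay among the N118D arrays. In limma 0 of the 10 tested member probe sets had an adjusted p under 0.05 (lowest adjusted p 0.9999), as had 0% of all tested probe sets. At an unadjusted p under 0.05 the count was 1 of 10, for PMEL, against 1.91% of all tested probe sets.

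Values are log2 levels, 1 per probe set and array, and a probe set was tested when it reached 4 on at least 3 of the 6 arrays. The medians of the 6 arrays lay between 3.08 and 3.12. The signal of the control probe sets at the 3' end minus that at the 5' end, a sign of RNA quality, was 0.79 to 1.23 for actin on v-Myb arrays, with the highest value on replicate 1, and 0.87 to 0.93 on N118D arrays. For GAPDH it was -0.22 to -0.15 on v-Myb arrays and -0.18 to -0.14 on N118D arrays. For the elongation factor EF1a it was 0.78, 0.68 and 0.60 on v-Myb replicates 1, 2 and 3, and 0.78, 0.60 and 0.64 on N118D replicates 1, 2 and 3. Its highest values were on the 2 arrays with the lowest average of the pigment genes, replicate 1 of each group, and its part in the result was not tested. Each gene is described across arrays only, since the levels of 2 different probe sets cannot be set against each other.

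**Figure D1:**
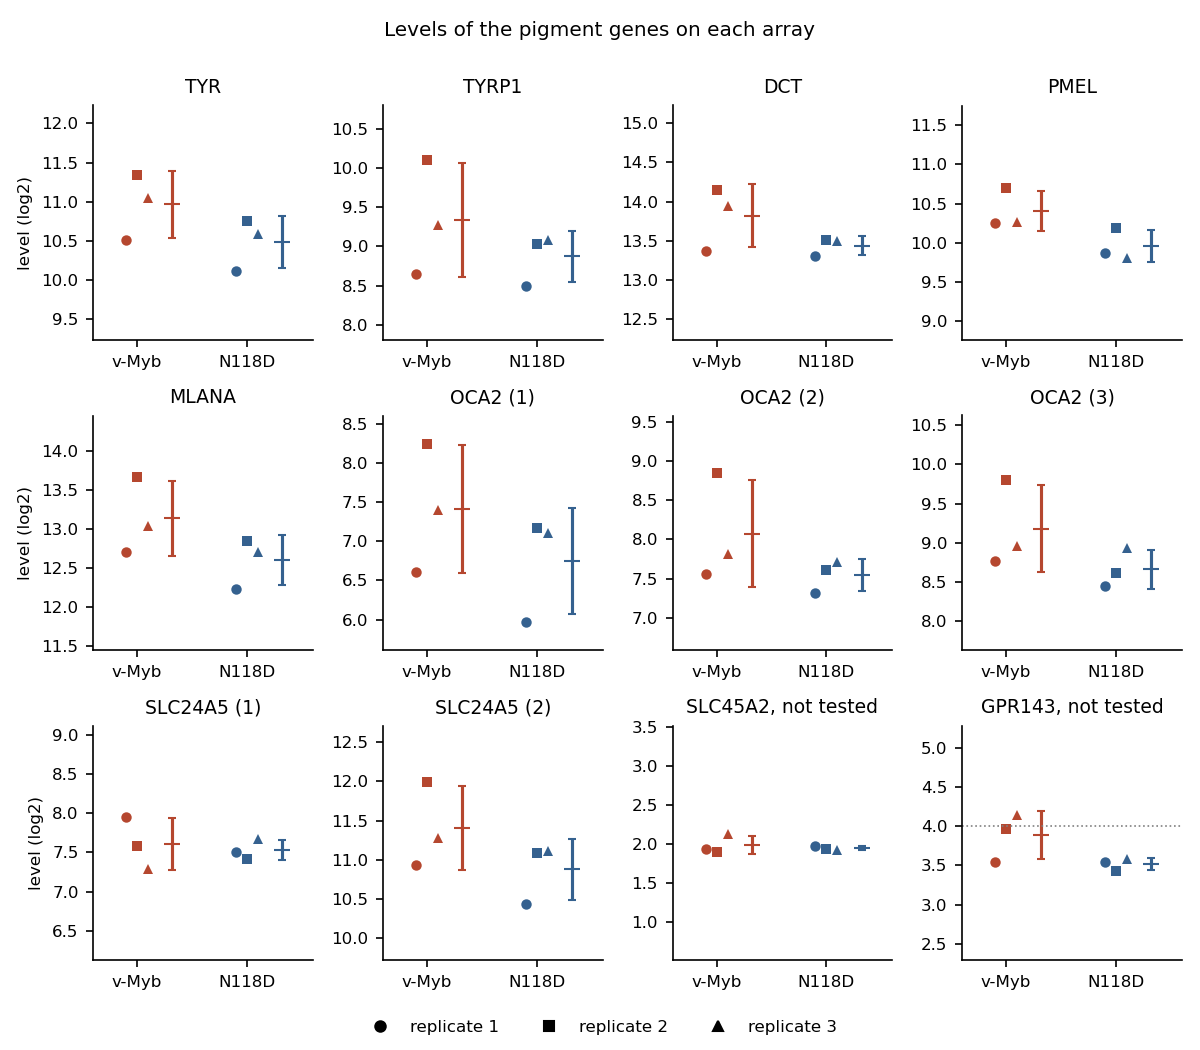
Level on the log2 scale (vertical axes, each spanning the same number of log2 units) of the 12 probe sets in v-Myb cultures on the left and N118D cultures on the right of each panel. Symbols are single arrays, bars are the mean and SD of 3 arrays, the dotted line is the testing minimum of 4, and probe sets of one gene are numbered; PMEL is the one tested probe set whose groups do not overlap.

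Among the melanin synthesis enzymes, tyrosinase (TYR) had levels of 10.51, 11.35 and 11.04 in v-Myb replicates 1, 2 and 3, against 10.11, 10.76 and 10.59 in N118D replicates 1, 2 and 3. The groups overlapped, because v-Myb replicate 1 lay below N118D replicates 2 and 3. The means were 10.97 ± 0.42 on v-Myb arrays and 10.49 ± 0.33 on N118D arrays (SD, n = 3 each). The difference of 0.48, or 1.39-fold, had a standard error of 0.27 and a 95% confidence interval of -0.17 to 1.13 (limma, unadjusted p 0.122, adjusted p 0.9999).

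TYRP1, a tyrosinase-related protein that in mouse oxidises an indole intermediate of eumelanin and helps to stabilise tyrosinase, had levels of 8.64, 10.10 and 9.28 in v-Myb replicates 1, 2 and 3, against 8.50, 9.04 and 9.08 in N118D replicates 1, 2 and 3. The one array that stood apart was v-Myb replicate 2, and the other 5 spanned less than 1 log2 unit. The difference was 0.47 with a standard error of 0.39 (95% confidence interval -0.48 to 1.42), and 0.087 without v-Myb replicate 2.

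DCT, dopachrome tautomerase, is active early in the melanoblast lineage. It had levels of 13.37, 14.15 and 13.94 in v-Myb replicates 1, 2 and 3, against 13.30, 13.51 and 13.50 in N118D replicates 1, 2 and 3. The N118D arrays lay close together, with an SD of 0.12 against 0.40 in v-Myb cultures, and v-Myb replicate 1 lay within their range. The difference was 0.38 with a standard error of 0.21 (95% confidence interval -0.13 to 0.90). Leaving out v-Myb replicate 1 gave 0.61, and leaving out v-Myb replicate 2 gave 0.22.

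Of the melanosome matrix proteins, PMEL, from which the amyloid fibrils of the maturing melanosome are made, had levels of 10.26, 10.71 and 10.26 in v-Myb replicates 1, 2 and 3, against 9.88, 10.19 and 9.80 in N118D replicates 1, 2 and 3. All v-Myb arrays were above all N118D arrays, as for 2.69% of all tested probe sets. The means were 10.41 ± 0.26 on v-Myb arrays and 9.96 ± 0.21 on N118D arrays (SD, n = 3 each). PMEL had the one confidence interval of the 10 that left out 0, from 0.037 to 0.87 around a difference of 0.45 (standard error 0.17, limma unadjusted p 0.0373, adjusted p 0.9999). The exact permutation test gave p = 0.1, which is the smallest that 3 against 3 arrays can give. Unlike for TYR, TYRP1, DCT and MLANA, v-Myb replicate 1 lay above N118D replicates 2 and 3.

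MLANA, a small melanosome membrane protein that in human cells binds PMEL and takes part in its processing, had levels of 12.71, 13.66 and 13.03 in v-Myb replicates 1, 2 and 3, against 12.24, 12.85 and 12.71 in N118D replicates 1, 2 and 3. v-Myb replicates 2 and 3 lay above all N118D arrays. v-Myb replicate 1 was level with N118D replicate 3, both at 12.71, and lay under N118D replicate 2, so the groups overlapped. The difference was 0.53 with a standard error of 0.28 (95% confidence interval -0.16 to 1.23).

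Of the transporters, OCA2, a melanosome membrane protein needed for the right pH and for tyrosinase activity, had 3 probe sets, numbered as in the plot of levels. The first had levels of 6.61, 8.24 and 7.40 in v-Myb replicates 1, 2 and 3, against 5.97, 7.17 and 7.11 in N118D replicates 1, 2 and 3. It spanned 2.27 log2 units over the 6 arrays, which was the widest range of the 12 probe sets, and its difference was 0.66 with a standard error of 0.51. The second had levels of 7.56, 8.85 and 7.82 in v-Myb replicates 1, 2 and 3, against 7.32, 7.61 and 7.71 in N118D replicates 1, 2 and 3.

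The other OCA2 probe set had levels of 8.77, 9.81 and 8.96 in v-Myb replicates 1, 2 and 3, against 8.44, 8.62 and 8.93 in N118D replicates 1, 2 and 3. The differences of these last 2 were 0.53 and 0.52, with standard errors of 0.35 and 0.30. Without v-Myb replicate 2 the differences of the 3 probe sets, in the order given, were 0.25, 0.14 and 0.20. Without v-Myb replicate 1 they were 1.07, 0.79 and 0.72, and without N118D replicate 1 the first was 0.27. All 3 were highest on v-Myb replicate 2 and lowest on N118D replicate 1. After each was centred on its own mean, the last 2 differed by at most 0.15 on any array. The first departed from them by up to 0.62 and 0.63, and its centred value on N118D replicate 1 was -1.11.

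SLC24A5, a potassium-dependent sodium-calcium exchanger, had 2 probe sets, and they did not give the same picture. The brighter one had levels of 10.94, 12.00 and 11.28 in v-Myb replicates 1, 2 and 3, against 10.43, 11.09 and 11.11 in N118D replicates 1, 2 and 3. Its pattern over the arrays was that of TYR and OCA2, with a difference of 0.53 and a standard error of 0.32 (95% confidence interval -0.27 to 1.33). The other had levels of 7.95, 7.58 and 7.29 in v-Myb replicates 1, 2 and 3, against 7.50, 7.42 and 7.67 in N118D replicates 1, 2 and 3.

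On that dimmer probe set v-Myb replicate 1 was the highest array and v-Myb replicate 3 the lowest. Its difference was 0.078 with a standard error of 0.18, and -0.096 without v-Myb replicate 1. The centred values of the 2 probe sets differed by up to 0.85 on one array. The brighter probe set carries the suffix that Affymetrix gives to sets whose probes can match more than one transcript, as do the second of the 3 OCA2 sets and the SLC45A2 set. The probe sequences were not used here, so which transcripts the SLC24A5 sets read was not established.

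SLC45A2, a transporter whose variants cause the silver plumage colour of chickens, had levels of 1.94, 1.91 and 2.12 in v-Myb replicates 1, 2 and 3, against 1.98, 1.94 and 1.93 in N118D replicates 1, 2 and 3. All 6 lay under the testing minimum, and the single probe set for the gene was not tested. GPR143, a receptor of the melanosome membrane that in human and mouse affects melanosome size, had levels of 3.54, 3.97 and 4.14 in v-Myb replicates 1, 2 and 3, against 3.54, 3.43 and 3.59 in N118D replicates 1, 2 and 3. One array reached the minimum of 4, so this probe set was not tested either. Its means were 3.89 ± 0.31 on v-Myb arrays and 3.52 ± 0.08 on N118D arrays (SD, n = 3 each), and the 2 higher values were v-Myb replicates 2 and 3.

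**Figure D2:**
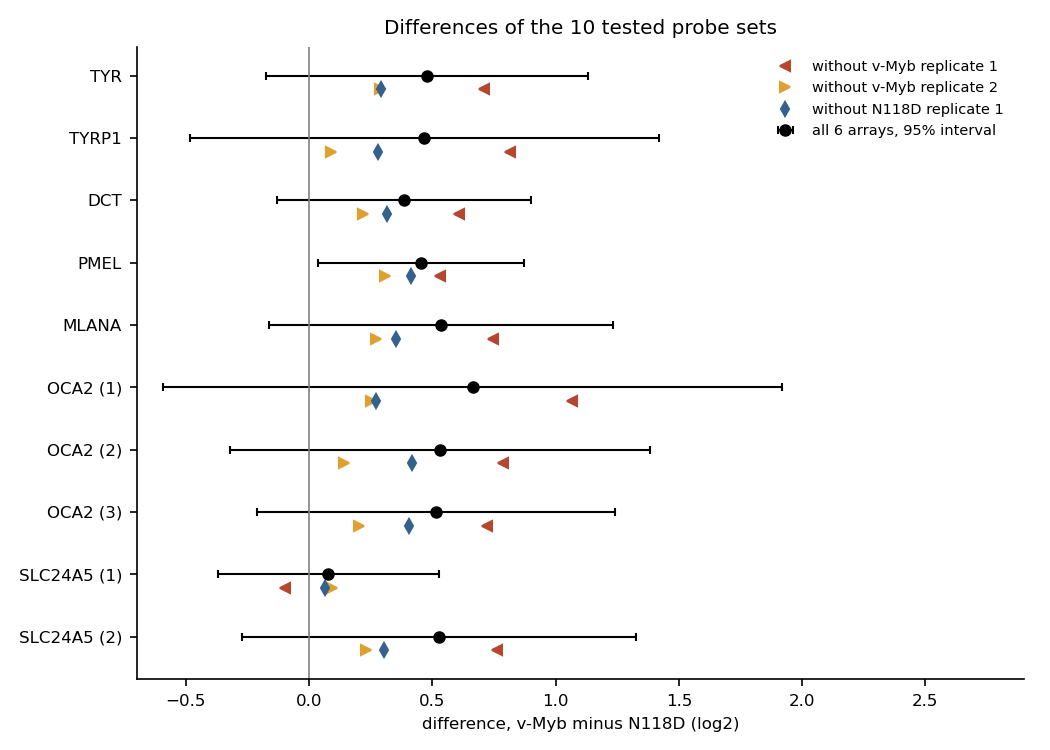
Difference between v-Myb and N118D cultures (horizontal axis, v-Myb minus N118D, log2) of the 10 tested probe sets, with 95% confidence intervals from limma as black bars and the difference after leaving out 1 array as coloured symbols. All 10 differences are above 0 with 6 arrays, and most shrink without v-Myb replicate 2 and grow without v-Myb replicate 1.

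Over the 10 tested probe sets, which belong to 7 genes, 10 of 10 differences were above 0, against 49.2% of all tested probe sets. A difference of at least 0.3, a value picked after the data had been seen, was measured for 9 of these 10 probe sets and 3.12% of all tested probe sets. These genes varied together from array to array, so the 10 values are not separate observations of the effect of the construct. Their SD over the 6 arrays ran from 0.23 to 0.76, and 69.6% of all tested probe sets had a smaller SD than the least variable of them, the dimmer SLC24A5 probe set.

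The arrays fell in nearly the same order for most members. v-Myb replicate 2 was the highest array for 9 of the 10 tested probe sets, against 22.7% of all tested probe sets, and N118D replicate 1 was the lowest for 8 of 10, against 15.2%. Averaged over the 7 genes after centring each on its mean, the level stood at -0.20, 0.74 and 0.18 on v-Myb replicates 1, 2 and 3, and at -0.53, -0.075 and -0.12 on N118D replicates 1, 2 and 3. The groups overlapped in this average, with v-Myb replicate 1 below N118D replicates 2 and 3. The place of that array was not particular to the pigment genes. Over all tested probe sets v-Myb replicate 1 correlated at 0.990, 0.983 and 0.988 with N118D replicates 1, 2 and 3. With v-Myb replicates 2 and 3 it correlated at 0.975 each. N118D replicate 1 in turn correlated best with v-Myb replicate 1, against 0.988 and 0.987 with N118D replicates 2 and 3. v-Myb replicate 3 correlated best with N118D replicate 2, at 0.994, against 0.993 with v-Myb replicate 2. v-Myb replicate 2 and N118D replicates 2 and 3 correlated best within their own group.

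Single arrays moved the median difference over the 7 genes by more than 1.5 times. Dropping v-Myb replicate 1 gave 0.72. The median was 0.23 when v-Myb replicate 2 was dropped and 0.32 when N118D replicate 1 was. Without v-Myb replicate 2 the difference was 0.29 for TYR, 0.31 for PMEL, 0.27 for MLANA and 0.23 for the brighter SLC24A5 probe set. With v-Myb replicate 1 left out, TYR, TYRP1, DCT, PMEL and MLANA had an unadjusted p under 0.05 in limma, 5 of 10 probe sets against 7.3% of all tested, and the lowest adjusted p among members was 0.416, for DCT. With v-Myb replicate 2 left out the count was 0 of 10, against 1.06%, and the lowest adjusted p was 0.99996.

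**Figure D3:**
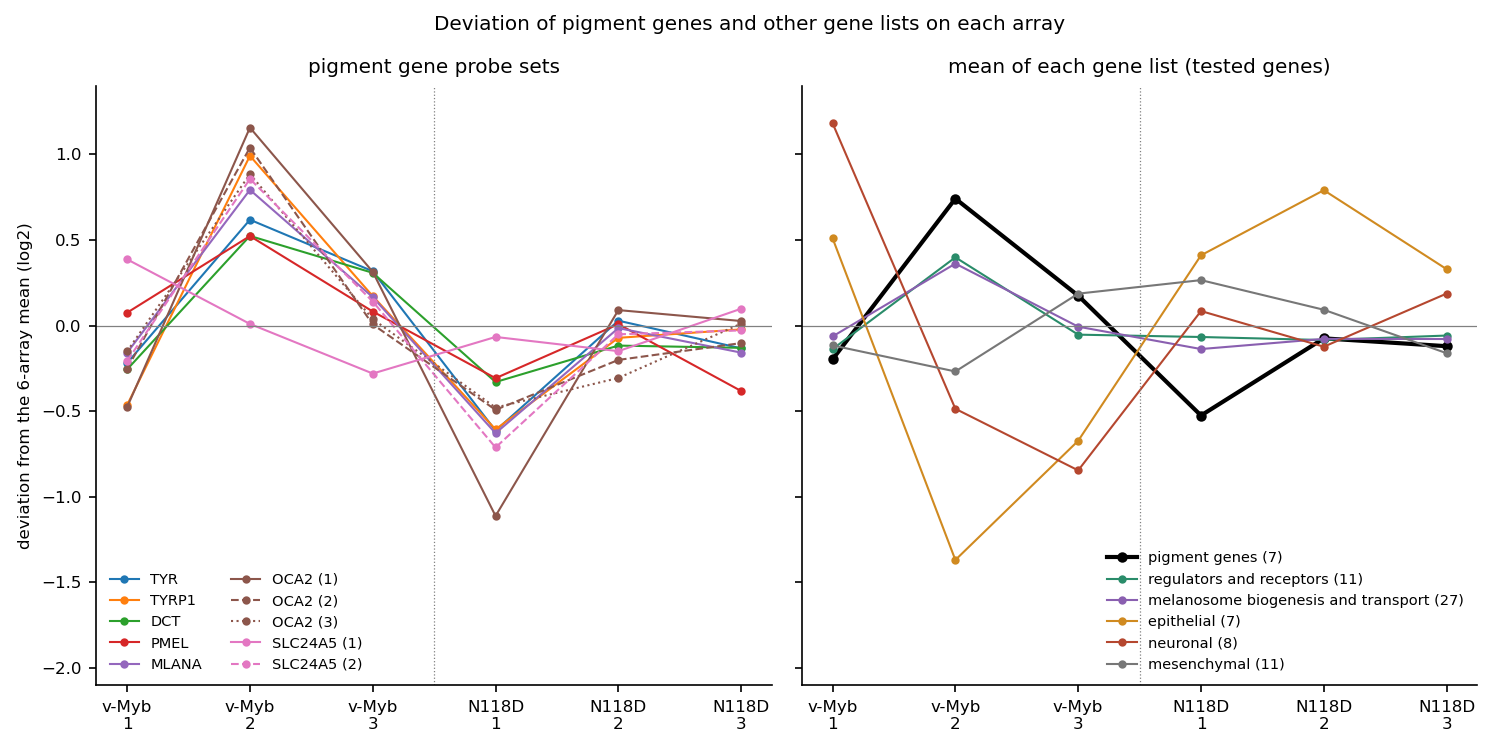
Deviation from the mean of the 6 arrays (vertical axis, log2) on each array, v-Myb arrays on the left of each panel, for the 10 tested pigment gene probe sets and for the mean of each gene list with the number of tested genes. Lines only join values of one probe set or list; v-Myb replicate 2 has the highest pigment gene mean, 0.74, and the lowest epithelial mean, -1.37.

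Levels of marker genes of other cell types also differed between the same arrays. The epithelial list (7 of 12 genes tested, among them KRT14, CDH1 and EPCAM) stood at 0.51, -1.37 and -0.67 on v-Myb replicates 1, 2 and 3 relative to its mean over all arrays, and at 0.41, 0.79 and 0.33 on N118D replicates 1, 2 and 3. All 7 tested epithelial genes had a lower mean in v-Myb cultures, against 50.8% of all tested probe sets, with 0 past the adjusted threshold. Their mean level was 7.05 to 8.93 on v-Myb arrays and 8.75 to 9.21 on N118D arrays. For TP63, 1 of the 7, the groups did not overlap, narrowly, with v-Myb values up to 4.17 and N118D values from 4.20. The share of all tested probe sets that did not overlap in this direction was not computed. The TP63 levels, 3.86 to 4.70, lay near the testing minimum of 4, and its other probe set averaged 2.35. CLDN4 was under 4 on every array, as were GAP43 of the neuronal list, GFAP and S100B of the glial, PDGFRA of the mesenchymal, and LYZ and SPI1 of the blood list. The 8 tested neuronal genes, of 11 listed, stood at 1.18, -0.49 and -0.85 on v-Myb replicates 1, 2 and 3, and at 0.085, -0.12 and 0.19 on N118D replicates 1, 2 and 3. Of the v-Myb arrays, replicate 1 had the highest values of both lists and the lowest pigment gene average. The N118D arrays did not follow this order. Among them replicate 1 had the lowest pigment gene average, -0.53, but the highest value of neither list. N118D replicate 2 had the highest epithelial value and also the highest pigment gene average of its group, -0.075. These levels do not count cells, and the part of other cell types in the pigment gene differences was not tested.

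Neural tube progenitor genes (6 of 8 tested, 2 higher and 4 lower) stood at 0.73, -0.62 and -0.69 on v-Myb replicates 1, 2 and 3. On N118D replicates 1, 2 and 3 they stood at 0.22, -0.15 and 0.51. HES5 varied most in this list and weighed heavily on its mean, with levels of 9.69, 4.07 and 3.41 in v-Myb replicates 1, 2 and 3. In N118D replicates 1, 2 and 3 it had 6.89, 6.28 and 8.28. PAX7 and OTX2 were the 2 with a higher mean in v-Myb cultures. Of 11 tested mesenchymal genes (12 listed), 10 had a lower mean in v-Myb cultures, against 50.8% of all tested probe sets, and 1 a higher. Their median difference was -0.13, with 0 past the adjusted threshold in limma. None had an unadjusted p under 0.05, against 1.91% of all tested probe sets. The mesenchymal genes had mean levels of 11.44 to 11.89 on v-Myb arrays and 11.55 to 11.97 on N118D arrays. Glial genes (3 of 7 tested, 2 lower and 1 higher) had 11.19 to 11.52 on v-Myb arrays and 11.46 to 11.58 on N118D arrays, and blood genes (2 of 7 tested) 6.66 to 6.87 on v-Myb arrays and 6.50 to 6.83 on N118D arrays. The retinal pigment epithelium also makes melanin and comes from the neural tube. Of 8 of its marker genes with a probe set, RPE65, BEST1, LRAT, RDH5, RGR and SIX3 were under 4 on all 6 arrays, while RLBP1 and OTX2, which other tissues also express, were tested. RLBP1 had levels of 5.19, 6.68 and 5.78 in v-Myb replicates 1, 2 and 3, against 4.55, 5.38 and 5.62 in N118D replicates 1, 2 and 3. OTX2 had 7.55, 8.28 and 8.47 in v-Myb replicates 1, 2 and 3, against 8.37, 7.38 and 8.02 in N118D replicates 1, 2 and 3. Over the 6 arrays RLBP1 correlated with the average of the 7 pigment genes at r = 0.979, and OTX2 at r = 0.235. Whether cells of this epithelium were present was not tested.

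The rest of the pathway was described from 2 lists. That of regulators and receptors of the pigment lineage held 16 genes, of which 12 were on the array and 11 were tested, 9 with a higher and 2 with a lower mean in v-Myb cultures, against 49.2% of all tested probe sets higher, and a median difference of 0.21. None passed the adjusted threshold and none had an unadjusted p under 0.05 in limma, against 1.91% of all tested probe sets. Relative to its mean over all arrays, the list stood at -0.14, 0.40 and -0.053 on v-Myb replicates 1, 2 and 3. On N118D replicates 1, 2 and 3 it stood at -0.067, -0.084 and -0.058. Only v-Myb replicate 2 was above the list mean, so the genes counted as higher are not separate observations. The groups did not overlap for TFAP2B and RXRG, both higher, 2 of 11 against 2.69% of all tested probe sets. Both gaps were narrow: the lowest v-Myb and highest N118D values were 11.667 and 11.664 for TFAP2B, and 4.914 and 4.907 for RXRG. MITF, the transcription factor that activates TYR, TYRP1 and DCT, had levels of 10.57, 11.65 and 11.22 in v-Myb replicates 1, 2 and 3, against 10.41, 11.13 and 10.90 in N118D replicates 1, 2 and 3. Like most members it was highest on v-Myb replicate 2 and lowest on N118D replicate 1. Its difference was 0.33 (standard error 0.32), and 0.43 and 0.34 on 2 further tested probe sets.

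SOX10, a crest transcription factor that acts upstream of MITF, had levels of 11.25, 11.92 and 11.15 in v-Myb replicates 1, 2 and 3, against 11.04, 11.03 and 11.17 in N118D replicates 1, 2 and 3. Its difference was 0.36 with a standard error of 0.21, and 0.39 on a further probe set. EDNRB2, the endothelin receptor of avian melanoblasts, differed by 0.37 on its brighter and 0.18 on its dimmer probe set. KIT, the receptor for the growth factor encoded by KITLG, differed by 0.13 and KITLG by -0.27. TFAP2B differed by 0.26, RXRG by 0.24, TFAP2A by 0.21, EDNRB by 0.21 and PAX3 by 0.042. LEF1, a transcription factor of the Wnt pathway, differed by -0.36 and, on another probe set, by -0.39. POMC was under 4 on every array.

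Of 34 genes for melanosome biogenesis and transport, 29 had a probe set and 27 were tested, 23 with a higher and 4 with a lower mean in v-Myb cultures, against 49.2% of all tested probe sets higher. The median difference was 0.15, and 0 passed the adjusted threshold in limma. This list stood at -0.063, 0.36 and -0.0062 on v-Myb replicates 1, 2 and 3, relative to its mean over all arrays. On N118D replicates 1, 2 and 3 it stood at -0.14, -0.077 and -0.078, so again only v-Myb replicate 2 was above the mean. The groups did not overlap for CTNS, higher in v-Myb cultures, 1 of 27 and near the 2.69% of all tested probe sets. The 6 with the largest differences were RAB38 (0.64), TRPM1 (0.57), HPS1 (0.48), GPNMB (0.44), LYST (0.38) and MLPH (0.38). RAB38 is a small GTPase that delivers TYR and TYRP1 to the melanosome, and the HPS1 and LYST proteins serve lysosome-related organelles. LYST was the one gene of this list with an unadjusted p under 0.05 (0.0289 in limma, standard error 0.13), and 1 of 27 is near the 1.91% of all tested probe sets. Its other probe sets averaged 2.24 to 2.68 and were not tested. LYST, TRPM1 and MLPH were dim, at 5.20 to 5.85, 4.56 to 6.29 and 4.68 to 6.15, not far above the testing minimum of 4. TRPM1, a cation channel gene that MITF activates in human melanocytes, gave 0.14 on a second probe set, and GPNMB, a melanosome protein related to PMEL, gave 0.50 on a second one. MYO5A, the motor that carries melanosomes along actin, differed by -0.021, and BLOC1S3 and SLC7A11 were under 4 on every array.

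**Figure D4:**
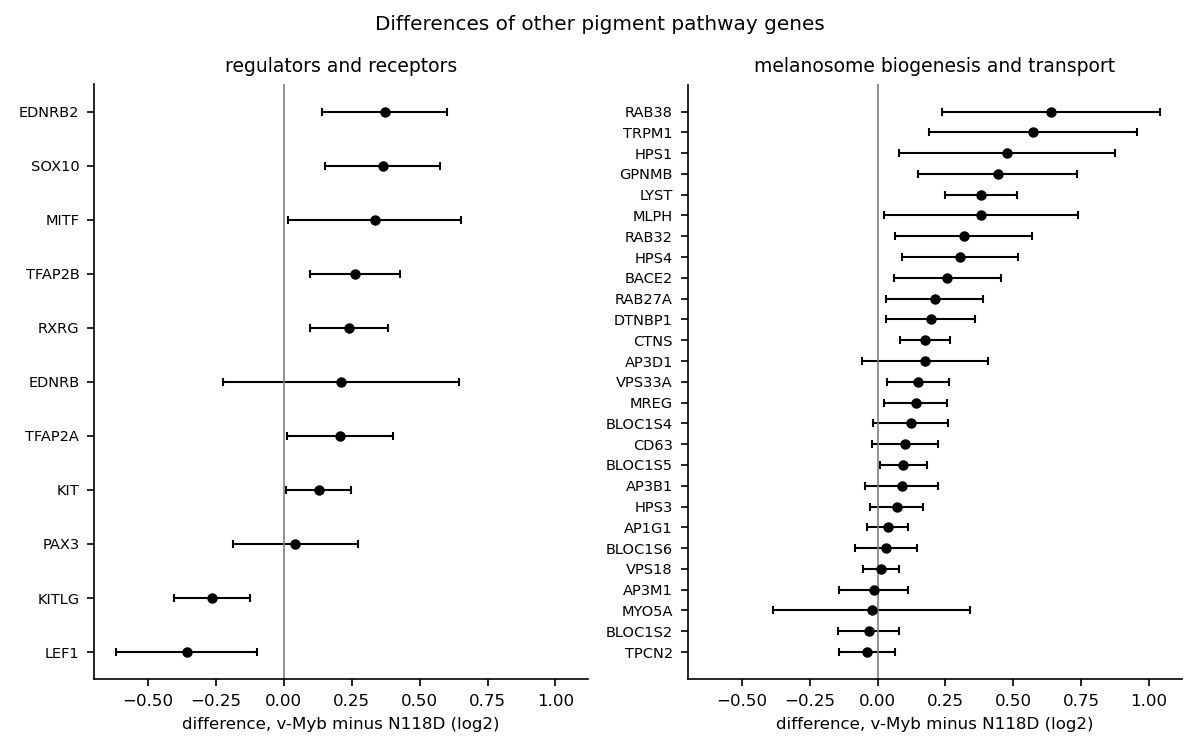
Difference between v-Myb and N118D cultures (horizontal axis, v-Myb minus N118D, log2) with its standard error for the 11 tested regulators and receptors and the 27 tested genes of melanosome biogenesis and transport, each by its brightest probe set. In the first list 9 of 11 values and in the second 23 of 27 lie above 0, and the mean of each list was highest on v-Myb replicate 2.

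The genes whose levels followed the pigment genes most closely over the 6 arrays were ranked by Pearson correlation with the average of the 7 members, among 1448 other genes whose SD over the arrays was at least 0.3. The highest were TLR7 (r = 0.995), SLC25A43 (r = 0.994), GSTO2 (r = 0.990), PLTP, FABP9 (both r = 0.989), AvBD5, EPB41L2 (both r = 0.988) and OXCT1 (r = 0.985). Of the genes compared, 5.94% had an r of at least 0.9. TLR7, an innate immune receptor gene, had levels of 7.28, 8.60 and 7.72 in v-Myb replicates 1, 2 and 3, against 6.82, 7.52 and 7.29 in N118D replicates 1, 2 and 3. The most opposed were SLC9A3R1 (r = -0.985), PARVA (r = -0.984), SOX3 (r = -0.982), TMEM100 (r = -0.974) and BMP7 (r = -0.973).

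With TYR alone the closest were TMEM9 (r = 0.992), TPP1 (r = 0.991), GSTO2 (r = 0.988), FABP9 (r = 0.985), TCIRG1 (r = 0.979), ABCC4 (r = 0.978), SLC25A43 (r = 0.975) and TLCD1 (r = 0.972). TPP1 encodes a lysosomal peptidase and TCIRG1 a subunit of a proton pump. Among the pathway genes, r with the member average was 0.985 for GPNMB, 0.959 for KIT, 0.958 for both TRPM1 and HPS1, 0.946 for MITF and 0.861 for SOX10. It was 0.034 for MREG and -0.084 for CD63. Lower values among tested pathway genes were -0.18 for KITLG, -0.23 for BLOC1S5, -0.28 for PAX3 and -0.34 for BLOC1S2. The lowest were -0.51 for AP3M1, -0.595 for TPCN2 and -0.70 for LEF1. All of these share the same 6 arrays. In the member average v-Myb replicate 2 lies furthest from the mean, at 0.74. No r with the member average or with TYR was computed without that array.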

How the data were processed

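Per the labels' protocols, biotin-labelled RNA of 6 cultures was made by in vitro transcription. The deposited table holds log2 values for 38535 probe sets, for which GCRMA and Partek 6.4 are named per the submitters' processing notes, with no role given. The log2 scale was read from the values (0.78 to 15.83), genes are not centred, and the direction of values is that of expression. Differences of dim probe sets are the least certain on such a scale. The 96 control probe sets were left out, and 16526 others with at least 4 on at least 3 arrays were tested.

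Groups came from the sample titles, which call the samples biological replicates without naming embryos or pools. The p-values therefore cover only the spread among these cultures, and how independent the cultures were is not given. limma 3.58.1 in R 4.3.3 compared the groups with no further term. Its two-sided p-values were adjusted by Benjamini-Hochberg across every tested probe set, and the fit was tested on simulated data. The number of arrays limits the precision. Symbols came from the platform annotation, with 27178 probe sets having 1 symbol, 177 several and 11180 none, and list genes were also matched through the current RefSeq symbol. Members and lists were chosen with earlier results of these data known. Named are all members, the regulators, the 6 largest differences of the biogenesis list, and the closest genes by correlation. Alternatives changed the filter (none, or 6 in place of 4), the scaling (quantile, median), the moderation (trend and robust), the weights of arrays, the block (replicate number), the probe sets per gene and the arrays included. No sequence tables were used here, so the planned promoter motif search was not run.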

Additional observations from a re-analysis of the deposited data

How the results depend on the processing

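The count of member probe sets past the adjusted threshold in limma was 0 in every fit run, and so was the count over all tested probe sets, where the smallest adjusted p was 0.0553, without v-Myb replicate 1. At an unadjusted p under 0.05 the member count was 0 to 6 of those tested, the highest being 6 of 10 with the replicate block. Over all tested probe sets it was 315 of 16526 in the fit as reported. It was 734 of 38439 with no filter and 202 of 12772 when the filter was 6. Of the same 16526 it was 671 with array weights and 666 with the replicate block. It ran from 102, without replicate 2 of both groups, to 1206, without v-Myb replicate 1. The median difference over member genes, 0.48 as reported, was 0.23 to 0.72 when 1 array was left out and 0.47 to 0.52 under the other planned settings. Of 160 repeats of single probe set differences, 157 kept their direction. The 3 that did not were all for the dimmer SLC24A5 probe set, whose difference ran from -0.096 to 0.24 when 1 array was left out: -0.0022 with array weights, -0.096 without v-Myb replicate 1 and -0.11 without replicate 1 of both groups. Leaving out both arrays of one number was added after seeing the data. For the member median it gave 0.54, 0.34 and 0.60 without numbers 1, 2 and 3.

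The replicate numbers of the 2 groups were not taken as pairs. Deviations from the group means, over all tested probe sets, correlated at 0.40, 0.45 and -0.048 between arrays numbered 1, 2 and 3. v-Myb replicates 1 and 2 each correlated best with the N118D array of their own number, and v-Myb replicate 3 with N118D replicate 2 (0.42). Whether the numbers mark pairs was not established. Within each number every tested member probe set was higher on the v-Myb array, except the dimmer SLC24A5 set for number 3. The share of all tested probe sets with this pattern was not computed. With the replicate block the median difference stayed at 0.48, and the member count at an unadjusted p under 0.05 was 6 of 10 against 4.03% of all tested. The lowest unadjusted member p in that limma fit were 0.0032 for PMEL and 0.0036 for TYR. The lowest member adjusted p was 0.9997, with 0 members past the threshold. GPR143 and SLC45A2 were too dim to be tested with the filter of 4, so no test of their differences was reported.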
